A study of Mus musculus with 8 samples.

Results

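RNA from brain T cells was compared with RNA from microglia across both treatments of the study, 4 T cell libraries against 4 microglia libraries, with treatment as a covariate. These are all 8 libraries of the series. The mice were C57BL/6 animals aged 20 to 22 months, and each cell type was sorted from the brains of mice given interleukin-5 (IL-5), a cytokine best known for its action on eosinophils and B cells, at 2 µg per day for 2 days, or phosphate-buffered saline (PBS). Either cell type has 2 libraries from each treatment, which makes 4 groups of 2. The labels do not name the surface markers used for sorting, and they do not say whether libraries came from separate or pooled mice. The p-values below therefore measure only the spread between these libraries, which may be technical.

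Microglia are the resident macrophages of brain tissue. They are kept alive by signals through the colony stimulating factor 1 receptor, survey the tissue through purinergic and chemokine receptors, clear debris with Fc, complement and lipid receptors, and digest it in lysosomes. T cells recognise peptides on MHC molecules through the T cell receptor and its CD3 chains, and those that settle in tissue are held there by integrins and chemokine receptors. The brain holds few T cells in youth and more with age, many of them CD8 cells.

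The table of deposited counts held 24924 usable genes, and 23536908 to 30423828 counts fell in genes in each library. Levels are given as CPM, the share of a library's counts, after scaling by the trimmed mean of M-values (TMM), called scaled CPM, and all levels of single genes are in this unit. Where no read was counted, as many as 3 remain possible, which is 0.0767 to 0.212 scaled CPM depending on the library and covers counting error only. Differences are log2 fold changes, T cells minus microglia, from the edgeR quasi-likelihood test with Benjamini-Hochberg adjustment over 14501 genes at a threshold of 0.05. The first principal component held 43.0% of the variance and separated the cell types, with microglia at -190.6 to -126.1 and T cells at 119.8 to 163.6. Microglia IL-5 replicate 1 stood apart on the second (15.0% of the variance) at -191.9, against 59.0 to 88.4 in the other microglia. Reads outside genes made up 25.5% of that library and 15.2% to 17.0% of the other microglia libraries. Counts of called list members that it moved by over 1.5 times are given with and without it.

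The 4 marker genes below went with the labels of the libraries. Markers of other cell types were also counted and are given further below. The CD3 delta chain gene Cd3d, part of the signalling complex of the T cell receptor, stood at 515 and 530.1 after PBS and 321 and 431 after IL-5 in T cells. In microglia it stood at 20.0 and 14.3 after PBS and 10.5 and 40.0 after IL-5. Thy1, a surface glycoprotein of mouse T cells, reached 146 and 165 after PBS and 113 and 114 after IL-5 in T cells against 4.96 and 6.77 after PBS and 8.19 and 9.54 after IL-5 in microglia. All 4 T cell libraries lay above all 4 microglia libraries for these genes, and in no microglia library were they at 0. The log2 fold changes were 4.41 (SE 0.47) for Cd3d (adjusted p = 0.0002) and 4.20 (SE 0.36) for Thy1 (adjusted p = 6.4e-05). P2ry12, a purinergic receptor that guides microglial processes, stood at 4056 and 2907 after PBS and 2838 and 3121 after IL-5 in microglia and at 0.169 and 1.61 after PBS and 0 and 0.171 after IL-5 in T cells. Tmem119, a membrane protein specific to microglia within the brain, stood at 5528 and 5910.2 after PBS and 2399 and 3778 after IL-5 in microglia and at 0.169 and 1.10 after PBS and 0 and 0 after IL-5 in T cells. The microglial markers were thus at or near 0 in every T cell library, while a low level of T cell transcripts was counted in microglia. In such bulk libraries, fewer cells of a type and less RNA per cell cannot be told apart.

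Windows of 250 bases before the RefSeq start (GRCm38.p6) are shown for a marker and a leading gene of each cell type, because the data turn on these genes. The genes were chosen after their values were seen. They are written in the direction of the gene, and capitals mark matches to a RUNX motif (TGTGGTT) or to an ETS motif of the PU.1 type (GAGGAAGT), searched on both strands. The window of Cd3d lies at chr9:44981536-44981785 on the plus strand, and that of Cd96, an adhesion receptor of T and NK cells, at chr16:46120249-46120498 on the minus strand. That of P2ry12 lies at chr3:59262986-59263235 on the minus strand and that of Fcgr4, an activating Fc receptor for IgG, at chr1:171018676-171018925 on the plus strand. The last 17 bases of the Cd3d window lie within the outermost RefSeq bounds of the gene, because the start used for the window is not the first of the gene.
Cd3d: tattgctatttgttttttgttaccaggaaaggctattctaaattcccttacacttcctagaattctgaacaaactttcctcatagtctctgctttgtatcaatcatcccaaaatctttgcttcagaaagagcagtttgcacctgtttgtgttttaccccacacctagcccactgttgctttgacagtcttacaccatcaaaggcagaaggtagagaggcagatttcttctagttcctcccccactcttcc
Cd96: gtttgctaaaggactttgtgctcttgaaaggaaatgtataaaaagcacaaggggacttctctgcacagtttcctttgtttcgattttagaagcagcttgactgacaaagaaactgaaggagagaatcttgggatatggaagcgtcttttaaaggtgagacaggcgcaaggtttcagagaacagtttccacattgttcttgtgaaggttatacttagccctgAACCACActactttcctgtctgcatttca
P2ry12: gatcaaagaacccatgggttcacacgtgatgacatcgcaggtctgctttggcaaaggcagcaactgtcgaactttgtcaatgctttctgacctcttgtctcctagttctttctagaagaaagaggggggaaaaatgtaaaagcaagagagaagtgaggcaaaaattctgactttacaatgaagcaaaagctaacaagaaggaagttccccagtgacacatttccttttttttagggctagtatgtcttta
Fcgr4: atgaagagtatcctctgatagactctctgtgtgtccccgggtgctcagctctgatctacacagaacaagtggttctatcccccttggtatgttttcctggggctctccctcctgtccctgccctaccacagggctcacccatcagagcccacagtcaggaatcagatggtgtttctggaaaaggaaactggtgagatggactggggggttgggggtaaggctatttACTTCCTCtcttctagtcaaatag
The Cd96 window held the RUNX motif on its reverse strand and the Fcgr4 window the ETS motif on its reverse strand. The Cd3d and P2ry12 windows held neither. Of the 32851 windows of all genes, 4.40% held the RUNX motif and 2.44% the ETS motif. Among the genes tested that had a window, the RUNX motif was found for 4.08%, against 5.80% of those called higher in T cells and 3.61% of those called lower. The ETS motif was found for 3.08%, 3.79% and 4.04%. A match describes letters in a window and does not show that a factor binds there.

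**Figure D1:**
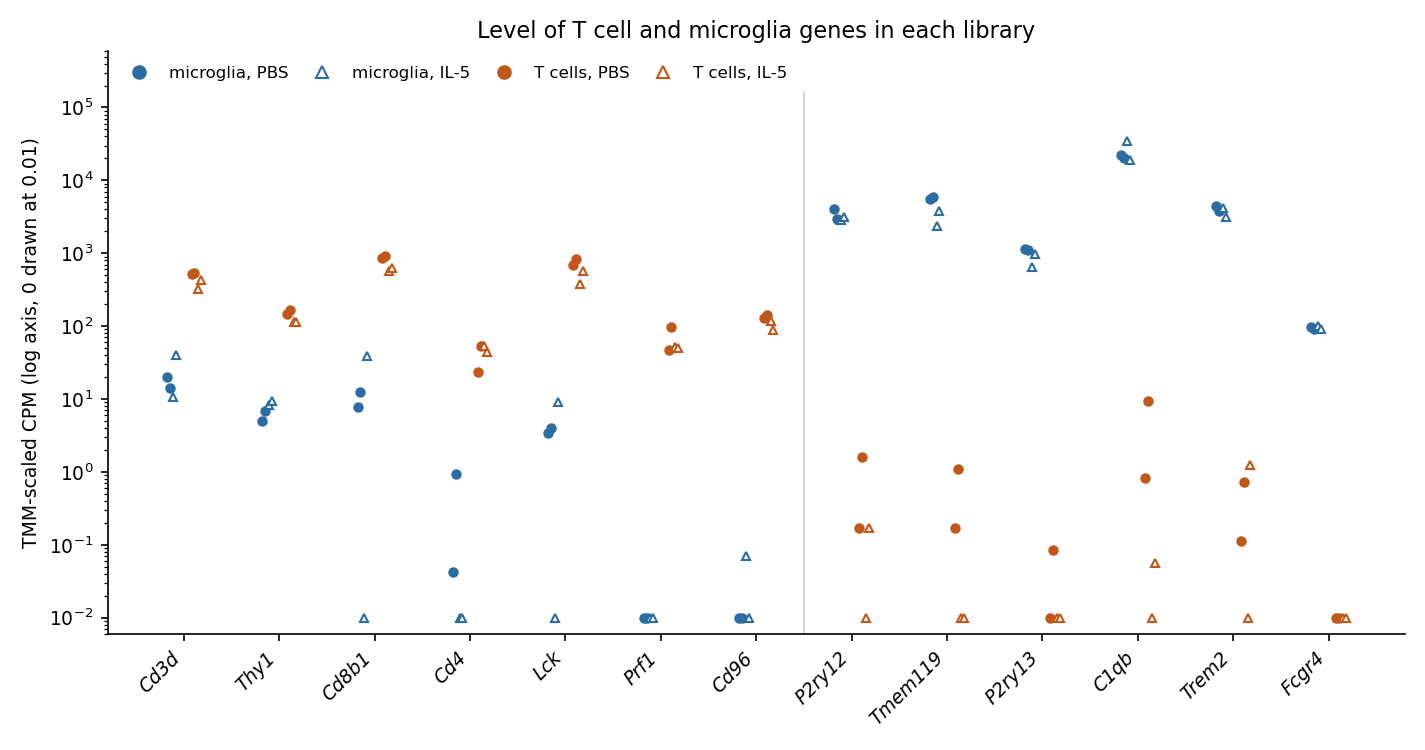
Level of 13 genes in each of the 8 libraries, as TMM-scaled CPM on a log axis with 0 drawn at 0.01. Filled circles are PBS and open triangles IL-5 libraries, microglia in blue and T cells in orange. For every gene shown the libraries of the cell types do not overlap.

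In T cells, edgeR called 1087 of 14501 genes higher (7.5%) and 1781 lower (12.3%) than in microglia. Differences of at least 64-fold were found for 120 of the higher and 315 of the lower genes. All 4 T cell libraries lay above all 4 microglia libraries for 13.6% of the genes and below them for 17.3%. The balance of the calls depended on the scaling. With scaling by library size alone the median log2 fold change of all genes was shifted upward by 0.83, and 76.3% of the called genes were higher in T cells, against 37.9% with TMM. The direction of 14 called genes turned with that scaling. Directions below hold under library size scaling unless stated.

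The genes with the largest fold changes at a mean of at least 20 scaled CPM in the higher cell type included genes that were at 0 in the other. Prf1, the pore-forming protein of killer cells, stood at 47.4 and 97.6 after PBS and 51.2 and 50.9 after IL-5 in T cells and at 0 in all microglia libraries, at least 405-fold higher. Sla2, an adaptor that dampens antigen receptor signals, was at least 377-fold higher, and the orphan receptor Adgrg5 at least 259-fold. Gprin3 and the palmitoyltransferase Zdhhc2 were likewise at 0 in every microglia library, with bounds of 295-fold and 188-fold. A few counts in microglia remained for Cd96, with 87.2 to 140.4 scaled CPM in T cells, for the class I restricted adhesion molecule Crtam (31.6 to 63.1), for the E-cadherin gene Cdh1 (44.5 to 94.2), for Tespa1, which acts in thymocyte receptor signalling (22.9 to 74.6), and for Gm4759 (88.8 to 165). Of the exons of Sla2, 23.6% of bases overlap Rab5if on the other strand, and reads of the pair cannot be told apart because the strand setting of the counting is not given.

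In the other direction, Tlr7, an endosomal receptor for single-stranded RNA, stood at 182 and 83 after PBS and 167 and 71.8 after IL-5 in microglia and at 0 in all T cell libraries, at least 1522-fold apart. The UDP receptor P2ry6 was at least 1346-fold lower in T cells, Fcgr4 at least 1149.7-fold and the macrophage membrane protein Ms4a7 at least 1092-fold. P2ry13, an ADP receptor of microglia, stood at 1128 and 1104 after PBS and 654 and 962 after IL-5 in microglia against 0 and 0.0847 after PBS and 0 and 0 after IL-5 in T cells. The calcium-binding protein Aif1, the source of the Iba1 stain for microglia, ranged over 1240.2 to 1771 in microglia and 0 to 0.226 in T cells. The complement gene C1qb ranged over 19062 to 35158 in microglia and 0 to 9.54 in T cells. Mymk, known as a muscle fusion protein, and Gm10790 were also at 0 in every T cell library, with 72 to 128 and 134 to 171 scaled CPM in microglia.

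**Figure D2:**
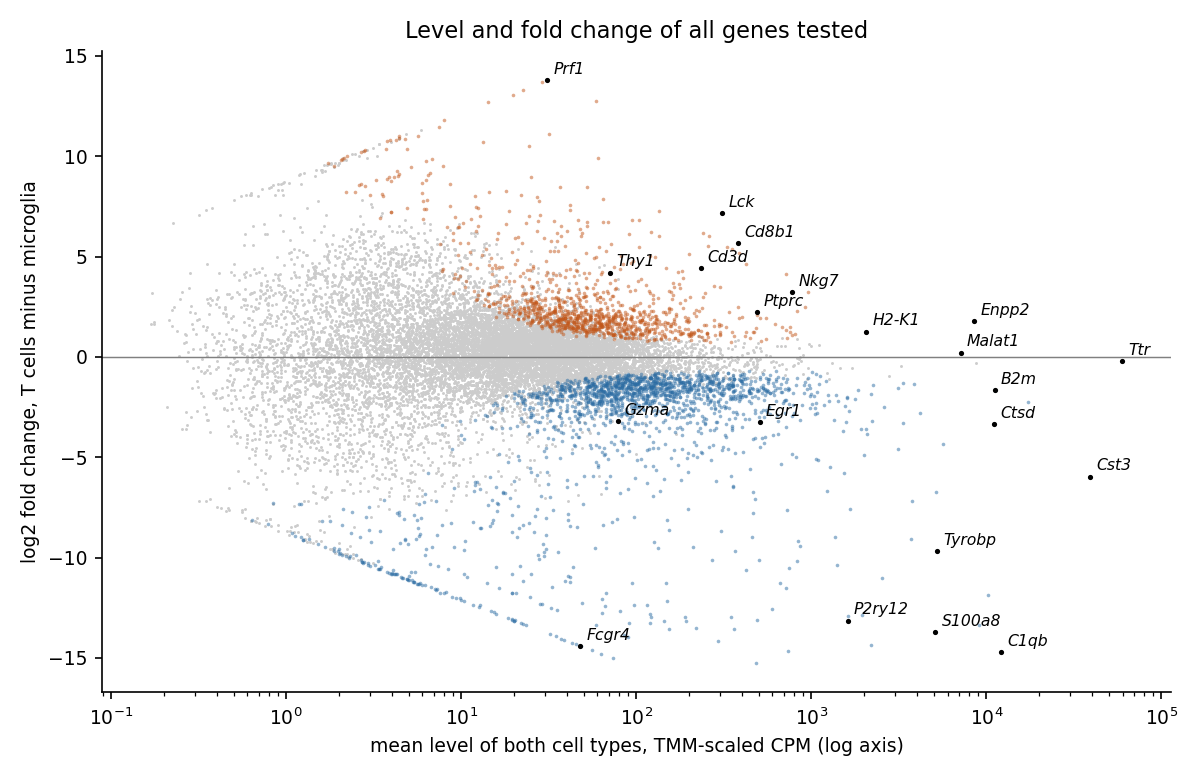
Mean level of both cell types (TMM-scaled CPM, log axis) against the log2 fold change, T cells minus microglia, for 14501 genes. Orange points were called higher and blue points lower in T cells, grey points were not called, and named genes are in black. The lower edge runs through genes such as Fcgr4 with 0 counts in T cells, and Ttr sits near 0.

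Of 15 genes of the T cell receptor complex and its coreceptors, 14 were called higher in T cells, 0 lower, and all 15 had no overlap between the cell types, with a median log2 fold change of 5.16 against 0.10 over all genes. Cd3e, the epsilon chain of CD3, stood at 503 and 555 after PBS and 343 and 486 after IL-5 in T cells and at 5.22 and 11.9 after PBS and 0 and 9.41 after IL-5 in microglia, a log2 fold change of 6.19 (SE 1.06, adjusted p = 0.0038). Cd247, which encodes the zeta chain, stood at 114 to 201 in T cells and 1.13 to 12.7 in microglia, although 56.4% of its exon bases overlap Pou2f1 on the other strand. Both CD8 chains were high in every T cell library. Cd8b1 stood at 874 and 917 after PBS and 563 and 631 after IL-5 in T cells against 7.70 and 12.7 after PBS and 0 and 39.4 after IL-5 in microglia, and Cd8a at 390.2 to 629.9 against 0 to 19.4. Cd4, the coreceptor of helper T cells, stood at 23.2 and 53 after PBS and 53.3 and 44.7 after IL-5 in T cells and at 0 in both microglia IL-5 libraries. The costimulatory receptor Cd28 was higher with a log2 fold change of 6.82 (SE 1.36, adjusted p = 0.0081), and Cd2, an adhesion receptor, with 4.25 (SE 0.42, adjusted p = 0.00013). The adaptor Trat1 did not pass the test, at 7.27 to 17.7 in T cells and at 0 in 3 microglia libraries (adjusted p = 0.18). Without the filter on low counts 8 of the 15 members were called. Leaving out each library in turn left 11 to 13 members called and 13 without microglia IL-5 replicate 1, which had 0 counts for Cd3e, Cd8a, Cd8b1, Cd4, Cd5, Cd6, Cd28 and Cd27. Cd8b1 was not called without microglia PBS replicate 1 or microglia PBS replicate 2 (adjusted p = 0.0502 to 0.0546). Cd3g was not called without microglia PBS replicate 1 or microglia PBS replicate 2 (adjusted p = 0.0649 to 0.0707). Cd5 kept its call only where microglia PBS replicate 2 or microglia IL-5 replicate 1 was left out (otherwise adjusted p = 0.0535 to 0.0873). Cd27 kept its call only where microglia PBS replicate 1 was left out (otherwise adjusted p = 0.052 to 0.0976).

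Proximal signalling genes of the receptor followed, with 17 of 20 called higher, 0 lower, and a median of 5.57. The higher count was 8 without the filter on low counts and 13 without microglia IL-5 replicate 1. Lck, the kinase that phosphorylates CD3, stood at 687 and 823 after PBS and 381 and 569 after IL-5 in T cells and 3.41 and 4.01 after PBS and 0 and 9.13 after IL-5 in microglia, a log2 fold change of 7.17 (SE 1.09, adjusted p = 0.0022). The kinase Zap70, which binds phosphorylated CD3, stood at 41.9 to 66.3 in T cells against 0 to 4.60 in microglia. Lat, the membrane scaffold that Zap70 phosphorylates, stood at 185 and 250.4 after PBS and 167 and 206 after IL-5 in T cells and 2.23 and 6.04 after PBS and 3.74 and 5.84 after IL-5 in microglia (log2 fold change 5.50, SE 0.42, adjusted p = 3.2e-05). Themis, needed for thymocyte selection, stood at 106 to 163 in T cells and was at 0 in 3 microglia libraries. The exchange factor Rasgrp1 and the phosphatase Ptpn22, which restrains Lck, were called higher at log2 fold changes of 6.83 (SE 1.34) and, for the latter, 5.02 (SE 0.90). Vav1, a guanine nucleotide exchange factor used by both lineages, was not called: it stood at 63.2 to 119.9 in T cells and 86.1 to 164 in microglia, with a log2 fold change of -0.47 that became 0.39 with library size scaling. The adjusted p was 0.082 for Malt1, which joins the receptor to NF-kappaB.

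Cytotoxic effector genes were split. Of 14 members, 7 were called higher and 3 lower in T cells, against 7.5% and 12.3% of all genes. Nkg7, a granule membrane protein, stood at 1393 and 1809.6 after PBS and 1038 and 1333 after IL-5 in T cells and 88.7 and 104 after PBS and 274 and 182 after IL-5 in microglia, a log2 fold change of 3.22 (SE 0.40, adjusted p = 0.00049). Granzyme K (Gzmk), a serine protease of memory CD8 cells, stood at 274 and 423 after PBS and 189 and 242 after IL-5 against 4.63 and 20.0 after PBS and 11.7 and 14 after IL-5, and the protease Ctsw at 411 to 664 against 0 to 12.1. The death ligand Fasl ranged over 57.7 to 169 in T cells and 0 to 7.21 in microglia, and interferon gamma (Ifng) over 116 to 149.6 and 0 to 8.22. Granzyme A (Gzma) went the other way: it stood at 4.11 and 18.4 after PBS and 4.45 and 24.9 after IL-5 in T cells and at 79.2 and 47.8 after PBS and 296 and 153 after IL-5 in microglia, a log2 fold change of -3.21 (SE 0.69, adjusted p = 0.0093). Prf1 was at 0 in those same microglia libraries. The summed NK cell list, which includes Gzma, was 46.3 to 179 CPM without TMM scaling in microglia and 63.8 to 163 in T cells. The exact permutation p was 0.971, and 0.257 with TMM scaling, where the direction turned. Gzma itself made up most of that sum in every microglia library and the smaller part in every T cell library. The sum is therefore not separate from the Gzma difference, and the part of NK cells in that difference was not tested. The granule proteoglycan Srgn and the cytokine Tnf were also lower in T cells, with log2 fold changes of -1.59 (SE 0.24) and -2.16 (SE 0.35). Fasl was not called without microglia PBS replicate 1 (adjusted p = 0.0524). Ifng was not called without T cells IL-5 replicate 1, T cells PBS replicate 2 or microglia PBS replicate 2 (adjusted p = 0.0502 to 0.0598). Cst7, a cystatin listed for both killer cells and reactive microglia, was not called, at 122 to 201 in T cells and 94.6 to 258 in microglia. Of 10 killer cell lectin-like receptors, 1 was called higher (7.5% of all genes were), Klre1, with a log2 fold change of 2.07 (SE 0.57, adjusted p = 0.029). Klre1 was not called without T cells PBS replicate 1, T cells PBS replicate 2, microglia PBS replicate 1 or microglia PBS replicate 2 (adjusted p = 0.059 to 0.101). DESeq2 and library size scaling called 4 of these receptors higher, and fits without the filter, with a filter at 5 CPM or without the treatment term called 2, as did the fit without T cells IL-5 replicate 1. Klrk1, the activating receptor NKG2D, ranged over 64 to 219 in T cells and 0 to 13.3 in microglia without passing the test (adjusted p = 0.061).

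Among transcription factors of T cells, 11 of 16 were called higher and 1 lower, against 7.5% and 12.3% of all genes. Tox, a factor of persistently stimulated CD8 cells, stood at 124 and 145 after PBS and 39.1 and 73.1 after IL-5 in T cells and 1.26 and 6.86 after PBS and 0.0706 and 0.457 after IL-5 in microglia (log2 fold change 6.19, SE 0.87, adjusted p = 0.001). Ets1 differed less, at 238 to 349.6 against 64.6 to 111, with a log2 fold change of 1.79 (SE 0.26). The log2 fold change was 4.76 (SE 1.13) for Tcf7, a factor of naive and memory cells, 7.03 (SE 1.69) for Eomes, a factor of killer cells, and 6.36 (SE 1.48) for Bcl11b, which fixes T cell identity. Tcf7 was not called without microglia IL-5 replicate 1 (adjusted p = 0.0744). Eomes was not called without T cells PBS replicate 2 (adjusted p = 0.0535). Id3, an inhibitor of E proteins, was the lower gene, at 155 to 334 in T cells and 385 to 542 in microglia (adjusted p = 0.044). Id3 kept its call only where microglia IL-5 replicate 1 was left out (otherwise adjusted p = 0.0515 to 0.149). It was also not called with library size scaling or RLE size factors. Id2 was not called (711 to 1062 against 509 to 619).

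Genes of residency and homing gave 8 higher and 2 lower calls among 15 tested, against 7.5% and 12.3% of all genes. Cxcr6, a chemokine receptor of resident CD8 cells, stood at 713 and 864 after PBS and 459.8 and 529 after IL-5 in T cells and 29.8 and 7.17 after PBS and 0 and 20.8 after IL-5 in microglia. Cxcr3, the receptor for interferon-induced chemokines, stood at 311 to 461 in T cells and 0 to 41.2 in microglia. The integrin genes Itga4, Itgal and Itga1 were higher, at 3.88 (SE 0.41), 4.97 (SE 0.69) and 2.82 (SE 0.39) on the log2 scale, with adjusted p-values of 0.0002, 0.00094 and 0.00095. The early activation antigen Cd69 ranged over 172 to 211 in T cells. The quiescence factor Klf2 was lower in T cells, at -1.79 (SE 0.24) on the log2 scale. Itgae, the CD103 integrin chain often used to define resident T cells, was low, at 3.97 and 16.2 after PBS and 12.1 and 11.5 after IL-5 in T cells, and was not called. Ccr7, which directs cells to lymph nodes, was called higher at 41.6 to 93.6 in T cells. Cxcr3 was not called without microglia PBS replicate 1 or microglia PBS replicate 2 (adjusted p = 0.0864 to 0.0886). Cd69 kept its call only where microglia IL-5 replicate 1 or microglia IL-5 replicate 2 was left out (otherwise adjusted p = 0.0623 to 0.115). Ccr7 kept its call only where microglia PBS replicate 1 or microglia IL-5 replicate 2 was left out (otherwise adjusted p = 0.0723 to 0.086). The count of higher members was 5 without T cell PBS replicate 1, either T cell IL-5 library or microglia PBS replicate 1, and 4 without the filter on low counts. With library size scaling the lower count was 1.

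Receptors for interleukins were higher for 6 of 12 members and lower for 1, against 7.5% and 12.3% of all genes. The interleukin-7 receptor Il7r, which sustains memory cells, stood at 143 and 156 after PBS and 99.3 and 148 after IL-5 in T cells and 1.47 and 2.80 after PBS and 0 and 1.42 after IL-5 in microglia (log2 fold change 6.72, SE 0.85, adjusted p = 0.00058). Il2rb, shared by the interleukin-2 and interleukin-15 receptors, stood at 254 to 364 against 6.77 to 29.6, and the common gamma chain Il2rg at 558 to 718 against 68.4 to 191. Il6ra was lower, at 6.04 to 11.1 in T cells and 32.7 to 71.2 in microglia, but was not called with library size scaling. Il5ra, the receptor subunit specific to IL-5, had 0 counts in all 8 libraries, and its partner Csf2rb stood at 35.8 and 20.0 after PBS and 79.9 and 14.1 after IL-5 in microglia and 0 to 1.23 in T cells (log2 fold change -7.05, SE 1.28, adjusted p = 0.004). Gimap genes, which encode GTPases that support lymphocyte survival, gave 7 higher calls of 8, with Gimap4 at 596 to 1037 in T cells and 21.2 to 45.4 in microglia (log2 fold change 4.63, SE 0.35, adjusted p = 3e-05). Without microglia PBS replicate 2 that count was 4. Gimap8 was not called without T cells PBS replicate 2, microglia IL-5 replicate 2, microglia PBS replicate 1 or microglia PBS replicate 2 (adjusted p = 0.0632 to 0.0831). Of 8 inhibitory receptors measured, 3 were called higher (Pdcd1, Ctla4 and Cd160) and 2 lower. The log2 fold change of Cd160 was 5.52 (SE 1.05, adjusted p = 0.0052). Lag3, which binds MHC class II, was lower in T cells, at 1.27 and 8.41 after PBS and 0.0256 and 2.42 after IL-5 against 49.4 and 62.7 after PBS and 64.3 and 54.4 after IL-5 in microglia (log2 fold change -4.56, SE 1.15, adjusted p = 0.019). Entpd1, an ectonucleotidase of both microglia and exhausted T cells, was lower as well (log2 fold change -1.90, SE 0.36). Lag3 was not called without T cells IL-5 replicate 2 or T cells PBS replicate 1 (adjusted p = 0.0502 to 0.0606). Pdcd1 kept its call only where microglia PBS replicate 2 or T cells IL-5 replicate 1 was left out (otherwise adjusted p = 0.0555 to 0.134). Ctla4 kept its call only where microglia IL-5 replicate 1 was left out (otherwise adjusted p = 0.0508 to 0.104). Only 1 of the receptors was still called higher after leaving out any 1 of 5 libraries: T cells PBS replicates 1 and 2, T cells IL-5 replicate 2, microglia PBS replicate 1 and microglia IL-5 replicate 2. The same count came without the treatment term, and the lower count was 1 without the filter or with library size scaling.

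**Figure D3:**
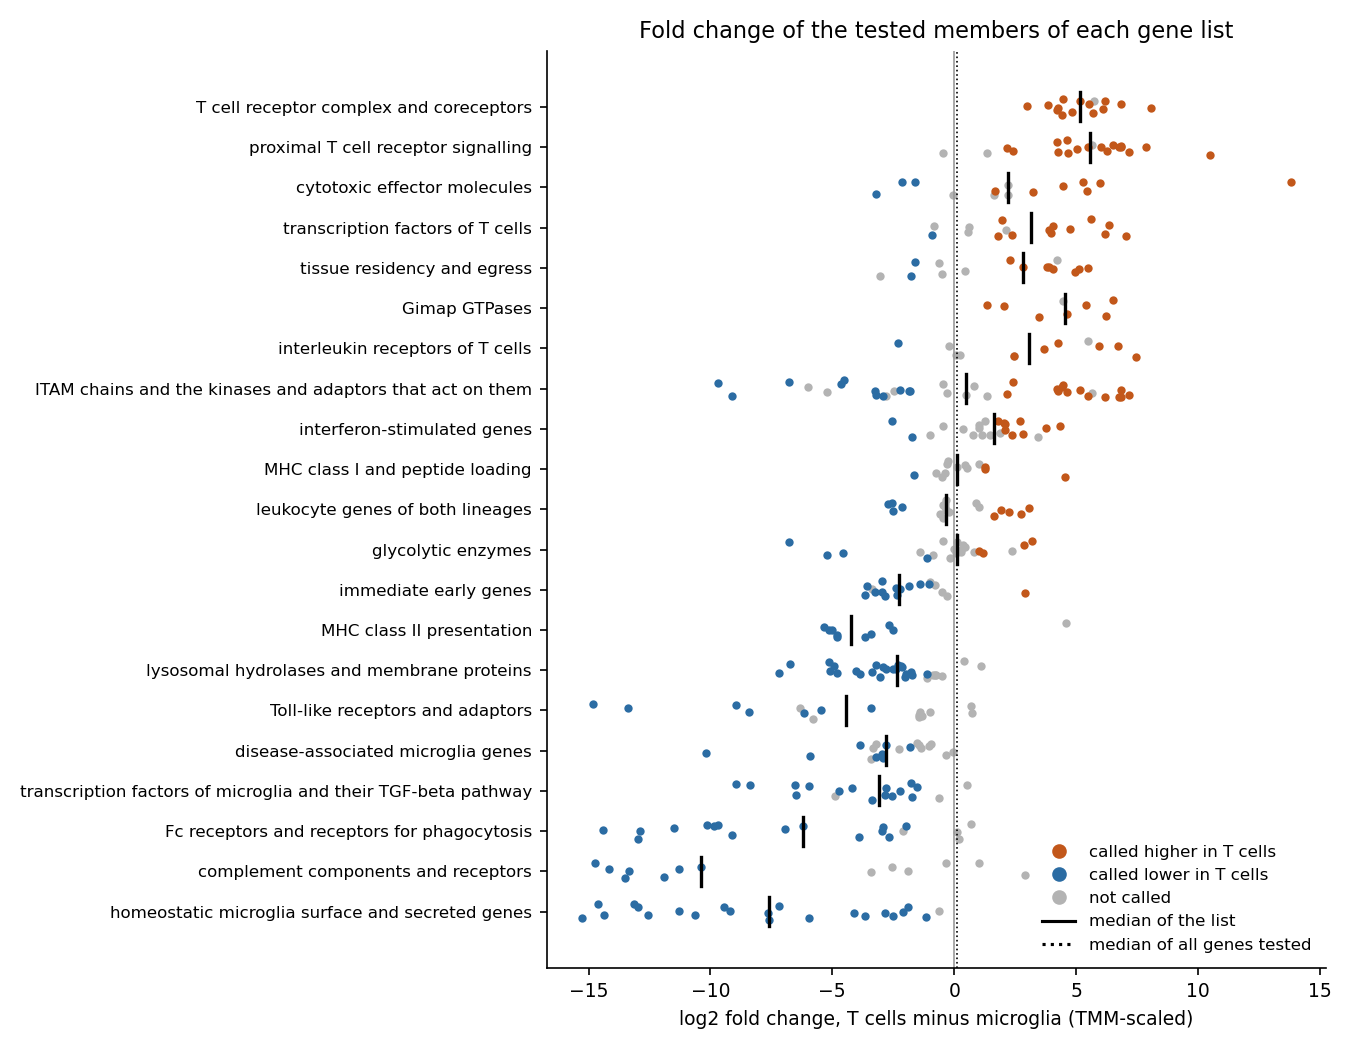
Log2 fold change, T cells minus microglia, of the tested members of 21 gene lists, 1 point per gene, orange called higher, blue called lower and grey not called. Black bars are list medians and the dotted line is the median of all genes. Lists of the T cell receptor lie to the right at medians of 5.16 and 5.57, and homeostatic microglia and complement lists to the left at -7.61 and -10.40.

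Of 22 homeostatic surface and secreted genes of microglia, 21 were lower in T cells and 0 higher, with a median log2 fold change of -7.61. Beside these and all following myeloid groups, 14 neutrophil markers summed to 14238 to 18528 CPM, without TMM scaling, in microglia and 22.9 to 168 in T cells, and 12 markers of monocytes and border macrophages to 798 to 908 and 604 to 702. Mmp8 and Cxcr2 of the former list and Lyve1 and Ms4a7 of the latter were at 0 in all T cell libraries. Of 11 tested members of the monocyte and border macrophage list, 5 were called lower and 1, Ccr2, higher (12.3% and 7.5% of all genes). Their median log2 fold change was -4.84, so the sums do not show how most members differed. The part of neutrophils, monocytes and border macrophages in the differences was not tested. The fractalkine receptor Cx3cr1 stood at 1614 and 1622 after PBS and 1197 and 1339.6 after IL-5 against 0.676 and 10.5 after PBS and 14.2 and 4.69 after IL-5. Siglech, an inhibitory lectin, was near 0 in T cells at 0 and 0.0565 after PBS and 0 and 4.26 after IL-5, with 1158 to 1565 in microglia. Gpr34, Gpr84, Olfml3, Slc2a5 and Fcrls had log2 fold changes of -7.59, -12.96, -9.20, -12.55 and -10.63. Csf1r, the receptor on which microglia depend, ranged over 1398 to 2267 in microglia and 0 and 0.903 after PBS and 21.4 and 0 after IL-5 in T cells (log2 fold change -9.43, SE 2.12, adjusted p = 0.014), and 15.1% of its exon bases overlap Hmgxb3 on the opposite strand. Csf1r was not called without T cells PBS replicate 2 (adjusted p = 0.0502). Cst3, a secreted cystatin, stood at 66089.7 to 96359 in microglia and 825 to 1542 in T cells. Selplg and Sparc kept a level in T cells, at 556 to 797 and 215 to 335 against 1504 to 4116 and 1235 to 2481 in microglia. Cd164 was not called, and its log2 fold change of -0.62 became 0.20 with library size scaling. Leaving out each library left 19 to 22 members called.

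Transcription factors and the TGF-beta pathway of microglia gave 15 lower and 0 higher calls among 18. Spi1, which encodes the myeloid master factor PU.1, stood at 930.1 and 995 after PBS and 944 and 784 after IL-5 in microglia and 0.0845 and 2.65 after PBS and 0 and 4.80 after IL-5 in T cells (log2 fold change -8.97, SE 1.49, adjusted p = 0.0033). Sall1, a factor that keeps microglia in their resting identity, stood at 118 and 120.4 after PBS and 190.2 and 102 after IL-5 against 1.32 and 1.04 after PBS and 0.460 and 2.98 after IL-5. The log2 fold change of Irf8, which drives macrophage maturation, was -4.74 (SE 0.42). That of the receptor gene Tgfbr1 was -5.94 (SE 0.46), while Tgfbr2 was not called, at 51.9 to 143 in T cells and 86.9 to 196 in microglia. Runx1 was lower at 18.4 to 38.9 against 97.9 to 246, and its relative Runx3 was higher at 44.2 to 101 against 0 to 14.1.

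Of 13 tested complement genes, 7 were lower in T cells and 0 higher. The C1q chains of the classical pathway had 1.05 to 9.13, 0 to 9.54 and 0 to 8.21 scaled CPM in T cells for C1qa, C1qb and C1qc, against 11530.5 to 44696, 19062 to 35158 and 13900.4 to 27715 in microglia. The anaphylatoxin receptors C3ar1 and C5ar1 were lower, at -13.52 (SE 0.72) and -14.16 (SE 0.64) on the log2 scale, with adjusted p-values of 5.8e-06 and 4.4e-06. C3 was counted too rarely to be tested, and Serping1 became the 1 member called higher when microglia IL-5 replicate 1 was left out (adjusted p = 0.0286) and in DESeq2 (adjusted p = 0.0185). With library size scaling the higher count of the list was also 1. Of 19 Fc and phagocytic receptors, 15 were lower. Trem2, a lipid receptor linked to Alzheimer's disease, stood at 4487 and 3781 after PBS and 4176 and 3191 after IL-5 in microglia and 0.113 and 0.734 after PBS and 0 and 1.25 after IL-5 in T cells (log2 fold change -12.88, SE 1.24, adjusted p = 0.00017). Fcgr3 ranged over 574 to 1233 and 0 to 6.65, Cd68 over 617 to 1871 and 0 to 4.09, and Fcgr1 over 198 to 284 and 0 to 0.113. The bridging protein Gas6, which links dying cells to Mertk, was not called (144 to 289.6 in T cells, 132 to 228 in microglia), while Mertk was lower (log2 fold change -2.97, SE 0.35). Of 16 tested Toll-like receptor genes and adaptors, 7 were lower, against 12.3% of all genes. These were Tlr2, Tlr4, Tlr7, Tlr13, the coreceptors Ly86 and Ly96, and the transporter Unc93b1. DESeq2 called 11 lower, and library size scaling called 1 higher. The adaptor Myd88 was not called, at 20.1 to 63.2 in T cells and 27.5 to 185 in microglia, and neither were Irak1 and Irak4. Tlr8 and Tlr9 were too low to test.

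Lysosomal genes were lower in T cells for 23 of 30 members, with a median of -2.35, and none was higher. The cathepsin gene Ctss stood at 11929.6 and 10590.3 after PBS and 8278 and 9802 after IL-5 in microglia and 121 and 131 after PBS and 60.1 and 84 after IL-5 in T cells (log2 fold change -6.73, SE 0.31, adjusted p = 4.4e-06), and Ctsd at 25392 and 29651 after PBS and 7521 and 19022 after IL-5 and 1721 and 1849 after PBS and 1852 and 2022 after IL-5. Progranulin (Grn), which supports lysosomal function, was lower at -5.13 (SE 0.41) on the log2 scale, and Hexa at -5.09 (SE 0.51). In T cells a clear level of lysosomal transcripts remained, such as 318 to 522 scaled CPM of Lamp1, 498 to 747 of Ctsb and 629 to 1189 of Psap, the last not called. Microglia IL-5 replicate 1 was the lowest microglia library for Ctsd, Grn and Lamp1, and without it 26 members were called. With library size scaling 1 lysosomal gene was called higher. MHC class II genes were lower for 9 of 10 members. H2-Aa stood at 1425 and 1095 after PBS and 1041 and 1657 after IL-5 in microglia and 23.4 and 27.3 after PBS and 62.1 and 19.6 after IL-5 in T cells (log2 fold change -5.34, SE 0.43, adjusted p = 4.6e-05), and the peptide editor H2-DMa at 629 to 775 and 19.1 to 34.5. Cd74, the invariant chain, remained at 123 to 243 in T cells against 453 to 1330.4. Summed B cell markers, which belong to another cell type with class II, were 257 to 772 CPM in microglia and 171 to 525 in T cells (log2 ratio -0.45, exact permutation p = 0.429). With TMM-scaled CPM the log2 ratio was -1.30 (exact permutation p = 0.0571), and their part was not tested. Among 19 genes of disease-associated microglia, 8 were lower in T cells and 11 were not called, while 12.3% of all genes were lower. Cd9 and Lgals3 were lower, at -3.86 (SE 0.27) and -2.79 (SE 0.31) on the log2 scale. Apoe was not called, at 1184 to 2349.8 in T cells and 1911 to 4827 in microglia, and Spp1, Gpnmb and Itgax were not called either. Without microglia IL-5 replicate 2 or either microglia PBS library, 5 of them were called, and DESeq2 called 13.

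T cells and microglia both signal through immunoreceptor tyrosine-based activation motifs (ITAM), short tyrosine motifs that kinases phosphorylate and that Syk family kinases bind. Of 35 members, 14 were higher and 11 lower in T cells, and without the filter on low counts 9 were higher. The ITAM chains of microglia are Tyrobp, partner of Trem2, and Fcer1g, partner of Fc receptors. Tyrobp stood at 6536 and 5491 after PBS and 24355 and 5632 after IL-5 in microglia and 8.76 and 11.5 after PBS and 21.2 and 5.31 after IL-5 in T cells (log2 fold change -9.68, SE 0.75, adjusted p = 3.6e-05), and Fcer1g at 4927 and 4219.9 after PBS and 15826 and 4515 after IL-5 and 17.6 and 12.3 after PBS and 15.8 and 4.80 after IL-5. Microglia IL-5 replicate 1 was highest for both genes, and without it both stayed called and the count of lower members was 11. Among 9 pairs of related genes, 1 typical of T cells and 1 of myeloid cells, the T cell gene was called higher and the myeloid gene lower in 8. The pairs were chosen as typical of each lineage, so this count is no test. Of all genes, 7.5% were called higher and 12.3% lower. The scaffolds Lat and Lat2 differed by 5.50 (SE 0.42) and -4.63 (SE 0.52), and the adaptors Lcp2 and Blnk by 2.15 (SE 0.41) and -3.23 (SE 0.46). Exons of Lat2 share 36.3% of their bases with Rfc2 on the opposite strand, so its value is uncertain. The phospholipase C gamma genes Plcg1 and Plcg2 differed by 2.41 and -3.20, protein kinase C genes Prkcq and Prkcd by 4.63 and -1.83, and exchange factors Rasgrp1 and Rasgrp3 by 6.83 and -2.22. Prkcq was not called without T cells IL-5 replicate 2, T cells PBS replicate 2 or microglia IL-5 replicate 1 (adjusted p = 0.0566 to 0.118). The integrin chains Itgal and Itgam, which pair with the same beta chain Itgb2, differed by 4.97 (SE 0.69) and -11.27 (SE 1.20), while Itgb2 was not called, at 202 to 365 in T cells and 36.7 to 277 in microglia. In the remaining pair the myeloid gene missed the threshold: Syk, the relative of Zap70, stood at 6.59 and 0.0282 after PBS and 28.5 and 15.4 after IL-5 in T cells and 50.7 and 47.6 after PBS and 87.8 and 54.9 after IL-5 in microglia (adjusted p = 0.1). Btk stood at 0 to 12.1 against 14.6 to 65.7 (adjusted p = 0.083), and was not called. The adaptor Bcl10, a partner of Malt1, was lower in T cells (log2 fold change -1.84, SE 0.33).

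**Figure D4:**
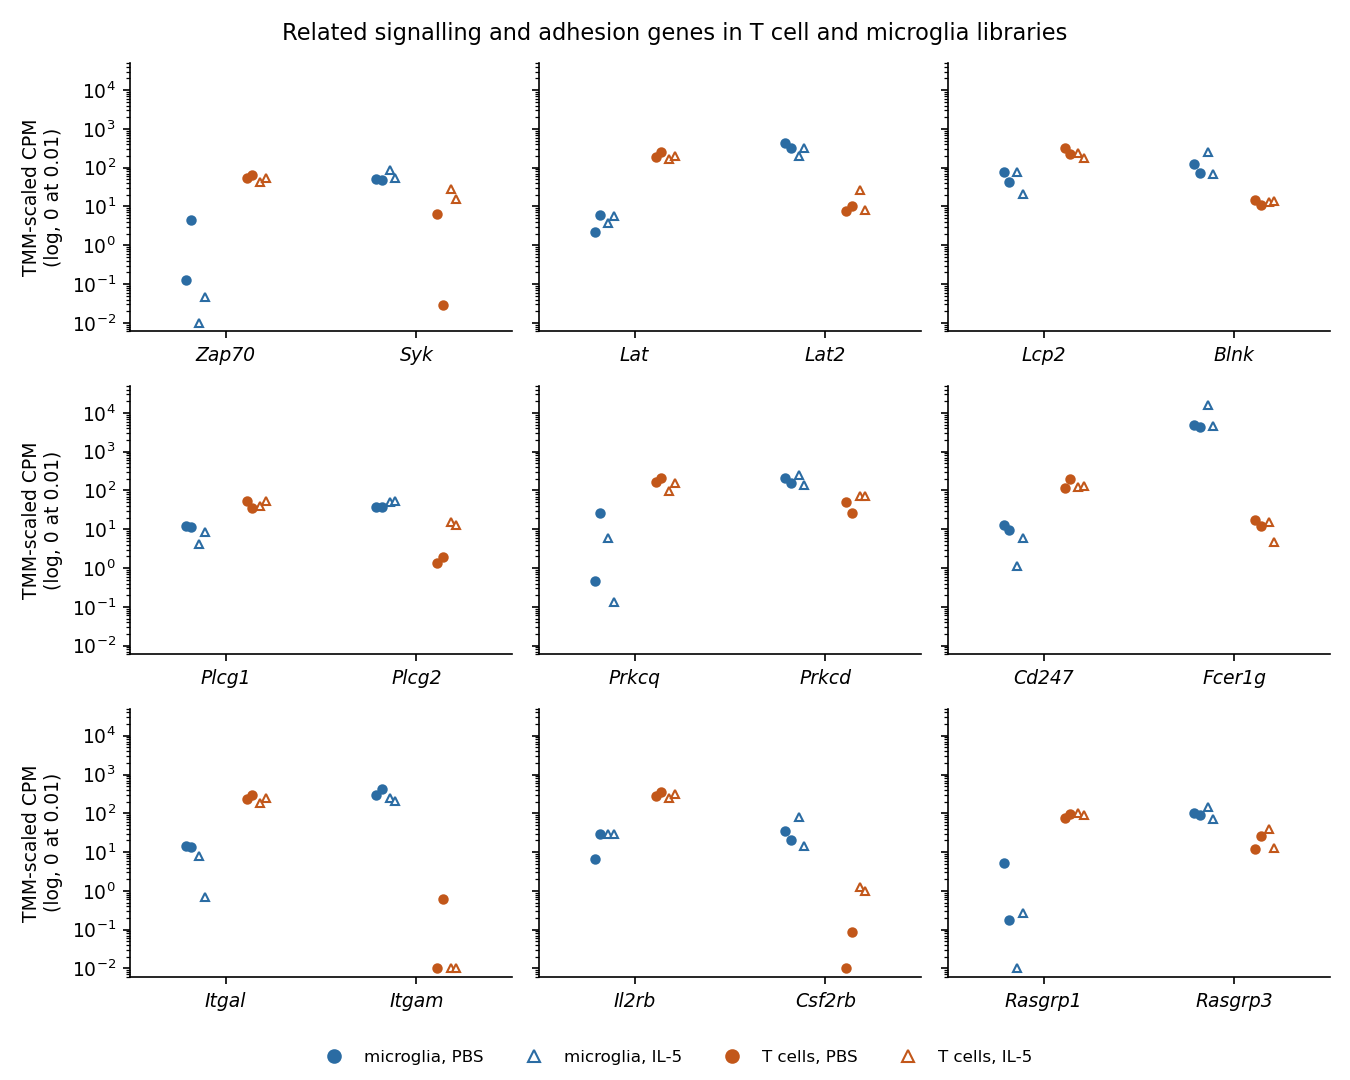
Level in each library, TMM-scaled CPM on a log axis with 0 drawn at 0.01, of 9 pairs of related genes, the T cell member on the left and the myeloid member on the right of each panel. Filled circles are PBS and open triangles IL-5 libraries, microglia in blue and T cells in orange. In 8 of the 9 pairs, chosen as typical of each lineage, the left gene was called higher and the right gene lower in T cells.

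Chemokines and their receptors were divided between the cell types. Of 25 tested, 6 were higher in T cells and 13 lower, against 7.5% and 12.3% of all genes. The ligands called higher in T cells were Ccl5, at 1585 and 2322 after PBS and 1498 and 1483 after IL-5 against 109 and 139 after PBS and 256 and 295 after IL-5 in microglia, and Xcl1, at 189 to 302 against 16.5 to 54.4. Microglia held the related ligands Ccl3, at 2245 and 1909 after PBS and 5986 and 1914 after IL-5 against 42.3 and 56.9 after PBS and 49.1 and 62.9 after IL-5 in T cells, and Ccl4, at 3434 and 2529 after PBS and 15434 and 2621 after IL-5 against 170.4 and 287 after PBS and 185 and 212 after IL-5. Ccl2, Ccl7 and Ccl12, which attract monocytes, were lower in T cells: Ccl12 stood at 479.8 to 1265 in microglia and 0 to 0.226 in T cells, and Ccl7, at 0 in all T cell libraries, was at least 488-fold lower. The membrane chemokine Cxcl16 stood at 123 and 133 after PBS and 75.1 and 139.7 after IL-5 in microglia and 6.43 and 0.0847 after PBS and 4.09 and 0.767 after IL-5 in T cells (log2 fold change -5.38, SE 1.06, adjusted p = 0.0067, 18.3% of exon bases shared with Zmynd15 on the opposite strand), and its receptor Cxcr6 was higher in T cells (log2 fold change 5.49, SE 1.17, adjusted p = 0.011). Ccr1, a receptor for Ccl3 and Ccl5, was at 0 in T cells. Ccr2 was higher in T cells at 72.4 to 136 against 12.1 to 56.8 (adjusted p = 0.042). Ccr2 kept its call only where microglia IL-5 replicate 1 or T cells PBS replicate 1 was left out (otherwise adjusted p = 0.0511 to 0.124). Xcr1, the receptor for Xcl1, and Cxcl10, a ligand of Cxcr3, were not called, and Cxcl10 stood at 24.9 to 117 in T cells and 36.9 to 79.7 in microglia. Without microglia PBS replicate 2, or without the filter on low counts, the higher count was 3.

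Several of these genes lie on the same stretch of a chromosome while differing in opposite directions (RefSeq, GRCm38.p6). On chromosome 11, Ccl5 at chr11:83525778-83530518 was higher in T cells, and the nearby genes Ccl9 at chr11:83572917-83578636 and Ccl6 at chr11:83587886-83593087 were lower, with log2 fold changes of -9.49 (SE 1.74) and -10.19 (SE 1.55). On chromosome 9, Cxcr6 at chr9:123806477-123811754 was higher in T cells, Ccr1 at chr9:123962126-123968692 was lower and Ccr2 at chr9:124101918-124109140 higher. On chromosome 7, Itgal at chr7:127296139-127335137 was higher and Itgam at chr7:128062640-128118491 lower. On chromosome 6, Cd4 at chr6:124864693-124888247 was higher and Lag3 at chr6:124904359-124912434 lower. Other genes near each other differed alike: Cd3g at chr9:44969572-44980431, Cd3d at chr9:44981769-44987052 and Cd3e at chr9:44998735-45009663 were all higher. C1qb at chr4:136880126-136886200, C1qc at chr4:136889801-136892936 and C1qa at chr4:136895916-136898844 were all lower, as were P2ry13 at chr3:59207892-59210882 and P2ry12 at chr3:59216271-59262985.

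Cytokine genes followed a similar division, with 5 of 20 tested higher and 6 lower in T cells. The interleukin-1 genes were lower in T cells: Il1a stood at 135 and 129 after PBS and 252 and 164 after IL-5 in microglia and 0 and 0.0282 after PBS and 0 and 0 after IL-5 in T cells (log2 fold change -13.85, SE 0.68, adjusted p = 4.6e-06), and Il1b at 104 to 157 and 0 to 0.0847. Il18 was lower (log2 fold change -2.84, SE 0.62), and its receptor chain Il18rap, at 8.08 to 56.9 in T cells and 0 to 4.66 in microglia, was called higher (adjusted p = 0.04). Beside Ifng, the lymphotoxin gene Ltb was higher, at 306 to 416 against 73.9 to 200.5 (log2 fold change 1.57, SE 0.32, adjusted p = 0.0068), as was the death ligand Tnfsf10, at 36.2 to 103 against 7.34 to 22.9. Il18rap kept its call only where microglia IL-5 replicate 2 or T cells IL-5 replicate 1 was left out (otherwise adjusted p = 0.0683 to 0.118). Tnfsf10 was not called without T cells PBS replicate 1, microglia PBS replicate 1 or microglia PBS replicate 2 (adjusted p = 0.0595 to 0.0679). Il2 was called higher at a low level, 8.93 and 2.94 after PBS and 13.2 and 5.68 after IL-5 in T cells. Il10 and Il12b were too low to test. Leaving out microglia PBS replicate 2 left 2 cytokines called higher, and leaving out T cells PBS replicate 2 or T cells IL-5 replicate 1 left 3. DESeq2 called 9 higher.

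Genes that both lineages use showed smaller and mixed differences. Of 19 pan-leukocyte genes, 5 were higher, 4 lower and 10 not called in T cells, while 7.5% of all genes were higher and 12.3% lower. The direction of 8 of the 19 turned with library size scaling. Ptprc, the CD45 phosphatase, stood at 979 and 890.1 after PBS and 723 and 648 after IL-5 in T cells and 135 and 152 after PBS and 233 and 165 after IL-5 in microglia (log2 fold change 2.24, SE 0.28, adjusted p = 0.00049), and the actin bundler Lcp1 at 663 to 949 and 145 to 255. The tetraspanins Cd53 and Cd37 were lower, at -2.72 (SE 0.32) and -2.14 (SE 0.23) on the log2 scale. Coro1a was not called, with 1028 to 1343 in T cells and 934 to 1806 in microglia. Of 13 MHC class I genes, 3 were higher (H2-K1, Tap1 and Nlrc5) and 1 lower, against 7.5% and 12.3% of all genes. H2-K1 stood at 2607 to 3368 in T cells and 592 to 1873 in microglia, while its light chain B2m was lower, at 4722 to 6185 against 13535 to 25467 (log2 fold change -1.66, SE 0.30, adjusted p = 0.0036). Nlrc5, the activator of class I genes, had a log2 fold change of 4.54 (SE 0.80, adjusted p = 0.0034). H2-K1 was not called without microglia PBS replicate 1 (adjusted p = 0.0642). Tap1 was not called without T cells IL-5 replicate 2, T cells PBS replicate 2 or microglia PBS replicate 1 (adjusted p = 0.0659 to 0.0768). Without microglia PBS replicate 1 the higher count was 1, with library size scaling it was 6, and without microglia IL-5 replicate 1 the lower count was 3.

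Of 22 interferon-stimulated genes, 9 were called higher in T cells and 2 lower, against 7.5% and 12.3% of all genes. Irf1, Ifit3 and Zbp1 were higher, at 2.03 (SE 0.30), 2.83 (SE 0.39) and 2.08 (SE 0.35) on the log2 scale. Ifitm3 and Bst2, membrane proteins that hold back viruses, were lower, at -2.55 (SE 0.36) and -1.75 (SE 0.29) on the log2 scale. The higher count was 11 without microglia IL-5 replicate 1. Immediate early genes, which respond within minutes to stimulation, were lower in T cells for 12 of 18 and higher for 1. Of all genes, 12.3% were called lower and 7.5% higher. Egr1 stood at 897 and 1021 after PBS and 979.9 and 771 after IL-5 in microglia and 91.5 and 115 after PBS and 126 and 52.1 after IL-5 in T cells (log2 fold change -3.25, SE 0.32, adjusted p = 0.00013), Zfp36 at 3141 to 4959 and 216 to 475, and Dusp1 at 1816 to 2121 and 301 to 431. The higher gene was Nr4a2 (log2 fold change 2.91, SE 0.89, adjusted p = 0.045). Nr4a2 kept its call only where microglia PBS replicate 2 or microglia IL-5 replicate 1 was left out (otherwise adjusted p = 0.0579 to 0.104).

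Of 21 glycolytic genes, 4 were higher, 4 lower and 13 not called, while 7.5% of all genes were higher and 12.3% lower. Hexokinase 1 (Hk1) stood at 138 and 125 after PBS and 74.3 and 94.6 after IL-5 in T cells and 17.8 and 4.01 after PBS and 7.48 and 16.9 after IL-5 in microglia (log2 fold change 3.19, SE 0.53, adjusted p = 0.0024). Hexokinase 2 (Hk2) was the reverse, at 3.35 and 1.30 after PBS and 2.12 and 5.54 after IL-5 in T cells and 84.2 and 96.1 after PBS and 209 and 65.9 after IL-5 in microglia (log2 fold change -5.22, SE 0.57, adjusted p = 0.00026), and Hk3 was lower (log2 fold change -6.80, SE 1.81). The platelet-type phosphofructokinase Pfkp was higher (log2 fold change 2.87, SE 0.37), and the lactate exporter Slc16a3 lower (log2 fold change -4.57, SE 0.41). Hk3 was not called without T cells IL-5 replicate 2, T cells PBS replicate 1 or T cells PBS replicate 2 (adjusted p = 0.0507 to 0.059). Aldoa and Gapdh were not called. Leaving out T cell IL-5 replicate 2 or either T cell PBS library left 2 members called lower, as did library size scaling. Of 23 tested cell cycle genes, 3 were higher in T cells (Mki67, Top2a and Mcm6), against 7.5% of all genes, and 0 lower. Mcm6, part of the replication helicase, stood at 137 and 179.9 after PBS and 44.5 and 93.7 after IL-5 in T cells and 4.04 and 9.47 after PBS and 0.988 and 2.15 after IL-5 in microglia (log2 fold change 4.99, SE 0.52, adjusted p = 0.00018), and Top2a at 18 to 56.8 and 0.967 to 2.01. Mki67 was not called without T cells PBS replicate 1 (adjusted p = 0.0591). Without microglia IL-5 replicate 1 or microglia PBS replicate 2 the count was 5, with DESeq2 9 and with library size scaling 8. Of 19 tested sterol genes, Srebf2 was higher (log2 fold change 1.62, SE 0.40) and the exporter Abca1 lower (log2 fold change -1.96, SE 0.34, adjusted p = 0.0031), which is no more than the shares of all genes (7.5% and 12.3%). Srebf2 was not called without T cells PBS replicate 1 or microglia PBS replicate 2 (adjusted p = 0.0503 to 0.0542). Without microglia IL-5 replicate 1 or without the filter the lower count was 2. DESeq2 called 3 higher and 3 lower, library size scaling 4 higher, and fits with a filter at 5 CPM or without the treatment term 2 higher. The smallest differences called were those of Atp5h, Eif1, Eif4a1, Hemk1 and Sh3bgrl3, between -0.73 and -0.69, and all 5 changed direction with library size scaling. Each of the 5 kept its call only where microglia IL-5 replicate 1 was left out (otherwise adjusted p = 0.0754 to 0.187).

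Markers of other cell types were summed in each library, as CPM without TMM factors, to describe what else the sorted material held. The 13 lists without a library at 0 were compared by a two-sided exact permutation test with 70 assignments, whose smallest possible p is 0.0286. That p was reached by 6 lists, and their Benjamini-Hochberg adjusted p was 0.0619, so none passed 0.05. The sums of neutrophil and of monocyte or border macrophage markers were below the microglia range in all 4 T cell libraries, as given above. The neutrophil alarmin S100a8 stood at 8101 and 8506 after PBS and 17430.1 and 6834 after IL-5 in microglia and 0.0564 and 8.67 after PBS and 0 and 0 after IL-5 in T cells. Oligodendrocyte markers summed to 1744 to 2783 CPM in T cells and 241 to 848 in microglia. Of these 12 genes, 3 were called higher in T cells, against 7.5% of all genes. In scaled CPM 9 overlapped between the cell types, as did 10022 of all 14501 genes tested. Markers of innate lymphoid, gamma-delta and regulatory T cells summed to 94.6 to 154 CPM in T cells and 14.1 to 25.7 in microglia. Of 9 members tested, Ikzf2 alone was called higher (7.5% of all genes were), and 8 overlapped between the cell types in scaled CPM. Trdc and Tcrg-C1 of this list were not among the usable genes. Foxp3, the factor of regulatory T cells, was at 0 in all microglia and in 1 T cell library.

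Vascular markers depended on the scaling. Endothelial markers summed to 2552 to 3701 CPM in T cells and 1596 to 2462 in microglia, without overlap (log2 ratio 0.56). With TMM-scaled CPM the ratio was -0.28 and the ranges overlapped (exact permutation p = 0.286). Of the 12 genes, 7 were called higher in T cells, such as the junction protein Pecam1 (log2 fold change 3.05, SE 0.36), and Ly6c1 was lower (log2 fold change -1.39, SE 0.30). Of all genes, 7.5% were called higher and 12.3% lower. Mural cell and fibroblast markers summed to 1159 to 2779.9 CPM and 344 to 861, with an exact permutation p of 0.0286 that became 0.114 with TMM scaling. Choroid plexus markers, which come from the epithelium that makes cerebrospinal fluid, summed to 59849.7 to 117249 CPM in T cells and 36089 to 64211 in microglia (log2 ratio 0.87, exact permutation p = 0.0857), and with TMM-scaled CPM the log2 ratio was 0.03 (exact permutation p = 0.971). Its gene for the carrier protein transthyretin, Ttr, overlapped between the cell types, at 48438 and 32756 after PBS and 68729 and 69096 after IL-5 in T cells and 51081 and 41036 after PBS and 92903 and 73630.5 after IL-5 in microglia. Of the 13 members 7 were called higher in T cells (7.5% of all genes were), among them Enpp2 (log2 fold change 1.77, SE 0.27, adjusted p = 0.0016), which encodes autotaxin. Eosinophil markers, of the cells on which IL-5 is best known to act, summed to 74.5 to 158 CPM in microglia and 0 to 38.9 in T cells, with no test because a T cell library was at 0. The sums for B cells, NK cells, neurons, astrocytes, ependyma and red blood cells overlapped between the cell types. The globin genes Hba-a1, Hba-a2, Hbb-bs and Hbb-bt were at 0 in all libraries. The part of any of these cells in the differences above was not tested.

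**Figure D5:**
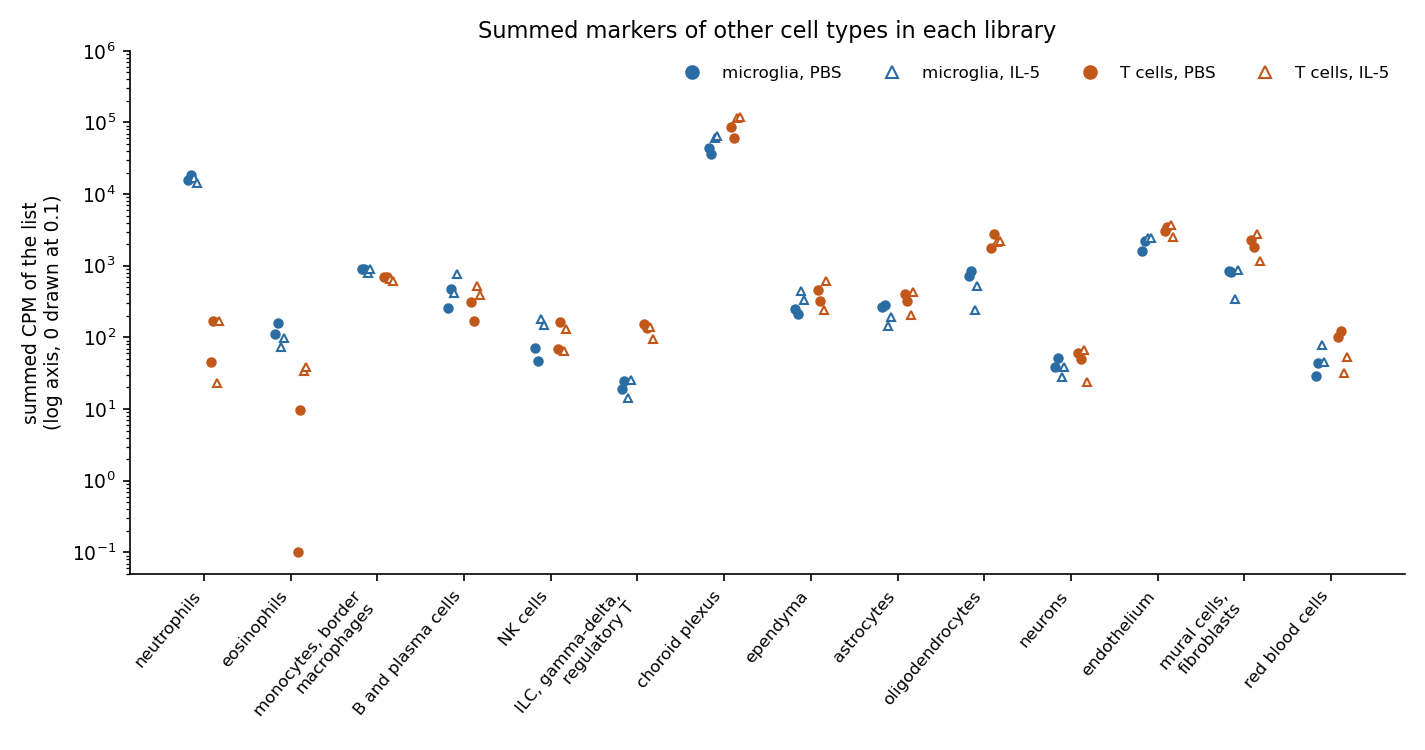
Summed level of 14 marker lists of other cell types in each library, CPM on a log axis with 0 drawn at 0.1. Filled circles are PBS and open triangles IL-5 libraries, microglia in blue and T cells in orange. Neutrophil markers lie at 14238 to 18528 in microglia and at 22.9 to 168 in T cells, while choroid plexus markers overlap at the top of the scale.

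The difference between the cell types was then set side by side for the treatments, from an interaction fit over 15397 genes. The log2 fold change of Cd3d was 5.0 (SE 0.64) after PBS and 3.95 (SE 0.61) after IL-5 (unadjusted p of the interaction = 0.21), and that of Lat 5.78 (SE 0.63) and 5.35 (SE 0.61) (unadjusted p = 0.57). For P2ry12 it was -11.84 (SE 1.33) and -15.00 (SE 1.51) (unadjusted p = 0.058). No gene passed the test of the interaction in edgeR (0.0% of the genes). At an unadjusted p under 0.05, 496 of the 15397 genes were higher and 302 lower after IL-5. By chance alone, a share of 0.05 of the genes is expected under that threshold. DESeq2 called 206 higher and 94 lower for the same term, and edgeR called 178 higher and 54 lower without microglia IL-5 replicate 2. The smallest unadjusted p-values in edgeR belonged to genes with few counts in at least 1 group. Hpgd, which degrades prostaglandins, stood at 0 and 0.0565 after PBS and 6.06 and 8.07 after IL-5 in T cells and 369 and 311 after PBS and 196 and 310.4 after IL-5 in microglia (unadjusted p = 6.3e-06). Prg2, an eosinophil granule protein, stood at 0 and 0.0847 after PBS and 26.1 and 18.7 after IL-5 in T cells and 116 and 141 after PBS and 102 and 87.6 after IL-5 in microglia (unadjusted p = 1.1e-05), and the protease inhibitor Slpi at 0 and 0.0847 after PBS and 17.9 and 8.13 after IL-5 and 139 and 185 after PBS and 195 and 103 after IL-5. For all 3, the T cell IL-5 libraries lay above the T cell PBS libraries, which is no further test because these p-values picked the genes. These 3, Acss2 and Ccar2 had the 5 smallest unadjusted p-values for a higher difference after IL-5, and C1qb, Gimap8, Samd3, Sh2d1a and Slc2a6 those for a lower one. None of the 10 passed the test. Of Sh2d1a, 26.6% of the exon bases overlap Tenm1 on the opposite strand. In microglia Gimap8 stood at 0 and 0 after PBS and 8.68 and 2.79 after IL-5, and Samd3 at 0 and 0 after PBS and 12.8 and 0.639 after IL-5. Within the IL-5 libraries alone edgeR called 45 higher and 172 lower, against 594 and 1072 within PBS libraries alone. Those counts are no test of a difference between the treatments.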

How the data were processed

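Whole-transcriptome RNA of microglia and brain T cells was measured in 8 libraries. The authors deposited 1 table of unnormalised counts per gene. Per the submitters' processing notes, reads were handled with STAR 2.5.3a, bcl2fastq 2.20.0.422, DESeq2 1.1, Cufflinks 2.0 and FastQC 1.0.0, with builds mm10 and GRCm38. The counting tool and its strand setting are not given in the sources used here.

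Of 24953 rows, 2 summary rows and 27 others with date-like names or non-numeric cells were left out. Reads outside genes made up 15.2% to 25.5% of a library. The edgeR 4.0.16 quasi-likelihood test in R 4.3.3 (TMM factors, filterByExpr with a minimum count of 10, cell type and treatment as terms) compared the cell types, and a second fit tested their interaction. Adjusted p-values are Benjamini-Hochberg, with a threshold of 0.05. Bounds against a cell type with 0 counts use 3 counts per library. Summed markers were tested on log2 CPM by an exact permutation test, with Benjamini-Hochberg adjustment over 13 lists. The main comparison was also run on simulated counts in which few genes changed, in either direction. That setting does not cover the dependence on scaling seen in these data.

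Genes named are the markers, members of the receptor, homeostatic and ITAM lists and of the pairs, in each other list up to 4 called members with the smallest p and 2 not called with the highest level, 10 genes per direction with the largest fold change at 20 or more scaled CPM, and 5 per direction for the interaction. Some genes that this rule names, and pairs that hold them, are not reported here. Further genes were chosen after their values were seen. The members and lists were chosen with earlier results of these data known. Alternatives were DESeq2 1.42.0, other scalings and filters, a replicate block, no treatment term, each treatment alone, and leaving out each library. Figures used Python 3.11.15 and matplotlib 3.10.9.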

Additional observations from a re-analysis of the deposited data

Results flagged for a closer look

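Of 42 groups of 4 libraries of 1 cell type, both treatments pooled, 6 held a library far from the other 3, and chance alone marks about 1 in 20 such groups. Reads outside genes made up 25.5% of microglia IL-5 replicate 1, against 15.2% to 17.0% of the other microglia libraries. In T cells IL-5 replicate 2 they made up 15.9%, against 19.2% to 19.8% of the other T cell libraries. Markers of mural cells and fibroblasts summed to 344.4 CPM in microglia IL-5 replicate 1, against 827.2 to 860.8 in the other microglia libraries. Markers of monocytes and border macrophages summed to 798.2 CPM in that same library, against 898.1 to 908.2. The microglial receptor P2ry12 stood at 1.61 scaled CPM in T cells PBS replicate 2, against 0 to 0.171 in the other T cell libraries. Tmem119 stood at 1.10 scaled CPM in that library, against 0 to 0.169.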

How the results depend on the processing

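The counts of called genes depended on the tool and on the scaling. DESeq2 called 2319 genes higher and 2738 lower in T cells, scaling by library size 2775 and 862, the PBS libraries alone 594 and 1072, and the IL-5 libraries alone 45 and 172. The smaller counts of single treatments come with 2 libraries per cell type. Within IL-5 libraries alone 2 genes of the T cell receptor complex and 3 proximal signalling genes were called higher, and within PBS libraries alone 11 and 11. The cause of the other shifts was not tested. Leaving out each library in turn gave 735 to 1234 higher and 1266 to 1787 lower genes. For the interaction DESeq2 called 206 genes higher and 94 lower after IL-5 and edgeR without a filter 27 and 4, while leaving out each library gave 0 to 178 higher and 0 to 54 lower, the largest counts without microglia IL-5 replicate 2.

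Same-numbered libraries of the cell types deviated from their group means with correlations of 0.016 after PBS and 0.023 after IL-5. With 2 libraries per group, this cannot decide whether same-numbered libraries came from the same mice. With same-numbered libraries of each treatment as blocks, 905 genes were higher and 1365 lower. This fit called 5 residency genes higher, 2 glycolytic genes lower and no transcription factor of T cells lower. With the replicate number added as a term to the interaction fit, no gene passed the interaction test.

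Of 4005 values of the 223 tested genes named, 3534 kept direction and call, 390 kept direction and lost the call, 52 gained it and 29 changed direction. Under library size scaling the log2 fold changes that turned were Atp5h 0.15, Cd164 0.20, Coro1a 0.50, Cst7 0.77, Cxcl10 0.71, Eif1 0.16, Eif4a1 0.0998, Gapdh 0.31, Hemk1 0.11, Sh3bgrl3 0.096, Tgfbr2 0.20, Ttr 0.62 and Vav1 0.39. With PBS libraries alone they were Aldoa -0.30, Ccar2 -0.029, Cxcl10 0.18, Gas6 -0.51 and Xcr1 0.92. With IL-5 libraries alone they were Cst7 0.38 and Gapdh 0.059. With the replicate block Cst7 turned to 0.024. Over the fits that leave out 1 library, and whose direction turned in at least 1, Gas6 ranged from -0.010 to 0.47, Aldoa from -0.17 to 0.29, Cxcl10 from -0.43 to 0.13 and Cst7 from -0.22 to 0.16. With TMM-scaled CPM the log2 ratios of summed lists that turned were NK cells -0.83, ependyma -0.47, astrocytes -0.24, neurons -0.55, endothelium -0.28 and red blood cells -0.28. That of NK cells was -0.34 to -0.12 where leaving out a library turned it. A count of 0 in 1 cell type limits a fold change to a bound at this depth.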
